A study of Rattus norvegicus with 7 samples.

Results

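Mitochondrial ribosomal proteins, encoded by the nuclear Mrpl and Mrps genes, were examined in ROE2 cells, a rat oral epithelial line, after exposure to sodium fluoride (NaF). The members were the probe sets of the array whose annotation held 1 gene symbol beginning with Mrpl or Mrps followed by a digit, which gave 97 of 31099 probe sets and 73 of 14217 named genes. Of these genes, 48 encode proteins of the large subunit and 25 of the small subunit of the mitochondrial ribosome. Mrps18a and Mrps30 are named after the small subunit but sit in the large one, and they were counted there.

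The mitochondrial ribosome makes the few respiratory chain and ATP synthase subunits that the mitochondrial genome still encodes. Its RNAs are transcribed inside the organelle, whereas all of its proteins are encoded in the nucleus, made by cytosolic ribosomes and imported. Some of these proteins have a counterpart in the bacterial ribosome and bind rRNA at the functional centers, and others were acquired only in mitochondria and lie mostly on the outer surface.

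ROE2 is an epithelial-like line from the tongue of 18-day fetal transgenic Wistar rats, and all arrays share its temperature-sensitive SV40 large T-antigen. Cells were kept for 24 h at 37 °C, a temperature above that used for their growth, in medium with 2% serum, and then received 2 mM NaF for 3, 6 or 12 h, vehicle (sterilized water, 1% v/v) for 3, 6 or 12 h, or served as a vehicle control with no time on its label, which the methods place at 0 h of vehicle while a legend of the study calls the control non-treated cells. This control array enters every mean of the 4 vehicle arrays. RNA from 3 independent experiments was pooled for each of the 7 arrays, and every condition therefore rests on 1 array. The values were log2 signals per probe set, with array medians between 5.32 and 5.35, and the vehicle arrays correlated with each other at r between 0.9961 and 0.9987 across probe sets.

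The epithelial keratins Krt5 and Krt14 had mean log2 signals of 13.51 and 14.10. Of 17 listed epithelial markers, 14 were bright enough to be tested. Summed over this list, the log2 level lay between 15.73 and 15.99 in NaF arrays, against 15.95 to 15.99 in vehicle arrays. At 12 h of NaF, Krt5 had 13.19 (13.55 to 13.60 in vehicle arrays), Krt14 14.03 (14.10 to 14.14) and Cdh1 11.96 (12.11 to 12.16). Epcam had 10.99 at that time (10.91 to 10.98). Defining markers of leukocytes (Ptprc, 3.14), endothelium (Pecam1, 2.66) and muscle (Ckm, 3.93) were near the bottom of the scale. Vim, a mesenchymal filament gene, had a log2 signal of 10.16 at 12 h of NaF, against 11.32 to 11.40 in the vehicle arrays. Of the other lists, 1 gene each was bright enough to be tested: Cd14 of 9 leukocyte markers, Egfl7 of 6 endothelial markers and Myh1 of 10 muscle markers. Summed over its whole list, the log2 level of the leukocyte markers lay between 9.45 and 9.80 in NaF arrays, against 10.27 to 10.39 in vehicle arrays, and that of the muscle markers between 10.39 and 10.69, against 9.93 to 10.22, without overlap in either list. The endothelial sum lay between 7.44 and 7.70 in NaF arrays, against 7.61 to 7.73 in vehicle arrays. Summed over the 10 listed mesenchymal markers, of which 2 were bright enough to be tested, the log2 level lay between 10.48 and 11.58 in NaF arrays, against 11.54 to 11.60 in vehicle arrays. The part of these differences in the values below was not tested. In such bulk samples, fewer cells of a type and less RNA per cell cannot be told apart.

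Changes are given as log2 NaF minus vehicle of the same time, which is a comparison of 1 array with 1 array. A gene is called higher or lower where the NaF array of that time differed from the mean of the 4 vehicle arrays in limma at an adjusted p under 0.05. All adjusted p-values refer to that comparison, unless another is named. The p-values measure only the spread among the pooled vehicle arrays of different times, and the lone NaF array is assumed to vary like them. Among the 97 member probe sets, 84 had a mean log2 signal of 7 or more and were tested, and they covered all 73 genes. Each gene is described by its brightest probe set. Signals are listed for 3, 6 and 12 h of NaF and then for the vehicle control and 3, 6 and 12 h of vehicle.

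The family did not move as a block. After 12 h of NaF, 31 of the 84 tested member probe sets (36.9%) were called higher, where 28.9% of all 10707 tested probe sets were, and 19 (22.6%) were called lower, where 31.7% of all were. At 6 h, 20 (23.8%) were called higher and 17 (20.2%) lower, with 16.7% and 22.2% over all tested probe sets. At 3 h limma called 0 higher (2.76% of all; 1 member was higher at an unadjusted p under 0.05) and 7 (8.33%) lower (6.29% of all). In either direction 8.33%, 44.0% and 59.5% of the members were called at 3, 6 and 12 h beside 9.04%, 38.9% and 60.6% of all tested probe sets. When the vehicle array of 6 h was left out, 2 members instead of 7 were called lower at 3 h, 9 instead of 20 higher at 6 h, and 11 instead of 19 lower at 12 h.

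The sizes of the changes were small for most members. The median change over the 84 probe sets was -0.05, 0.03 and 0.10 at 3, 6 and 12 h, against -0.03, 0.00 and -0.00 over all tested probe sets. At 12 h the middle 50% of members lay between -0.15 and 0.30, and the middle 50% of all tested probe sets between -0.36 and 0.33. A change of 1.5-fold or more was reached at 12 h by 7 member probe sets upward and 7 downward (8.33% each), where 13.6% and 14.5% of all tested probe sets reached it. At 6 h it was reached by 1 upward and 9 downward (5.27% and 9.48% of all), and at 3 h by 0 upward and 4 downward (1.27% and 3.4% of all). Among vehicle arrays, 0, 1 and 0 member probe sets reached it in either direction at 3, 6 and 12 h against the vehicle control (0.532%, 0.159% and 0.532% of all).

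**Figure D1:**
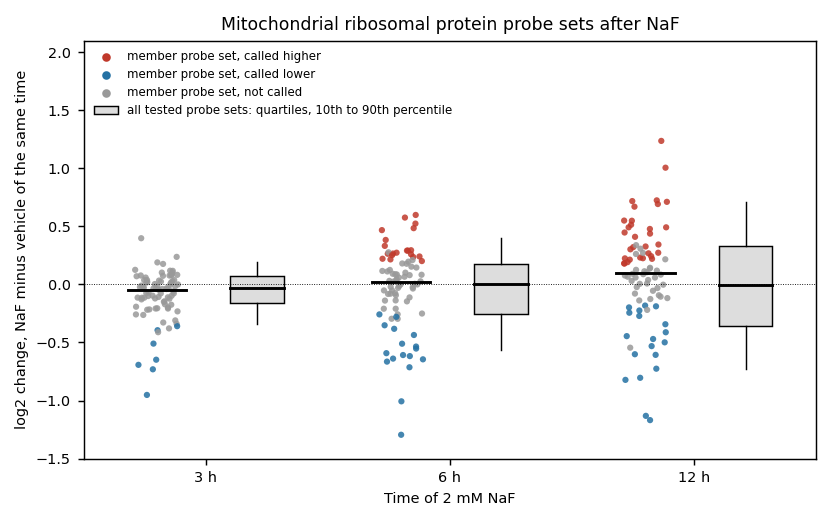
Log2 change (NaF minus vehicle of the same time, vertical axis) of the 84 tested member probe sets, 1 point each, at 3, 6 and 12 h, beside boxes of all 10707 tested probe sets (quartiles, lines to the 10th and 90th percentiles, bar at the median). The members spread with time, between -0.95 and 0.40 at 3 h and between -1.17 and 1.24 at 12 h, while their median stays within 0.10 of 0.

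The genes were also sorted by the course of their calls at 3, 6 and 12 h. Of the 73 genes, 14 were called higher at 6 and 12 h and 13 only at 12 h, while 5 were called higher at 6 h but not at 12 h (Mrpl23, Mrpl52, Mrpl54, Mrpl58 and Mrps23). On the lower side, 5 genes were called at all 3 times (Mrpl14, Mrpl36, Mrpl41, Mrps12 and Mrps17), 7 at 6 and 12 h, 6 only at 12 h and 3 only at 6 h (Mrpl12, Mrps11 and Mrps31). Mrpl16 changed direction, Mrpl34 was called lower at 3 and 6 h but not at 12 h, and 18 genes had no call at any time. Over probe sets, 25 of 84 had no call at any time (28.1% of all tested probe sets had none). In both directions at different times, 1 was called (3.8% of all). The shares of the other courses over all tested probe sets were not counted, so their numbers only describe the members.

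**Figure D2:**
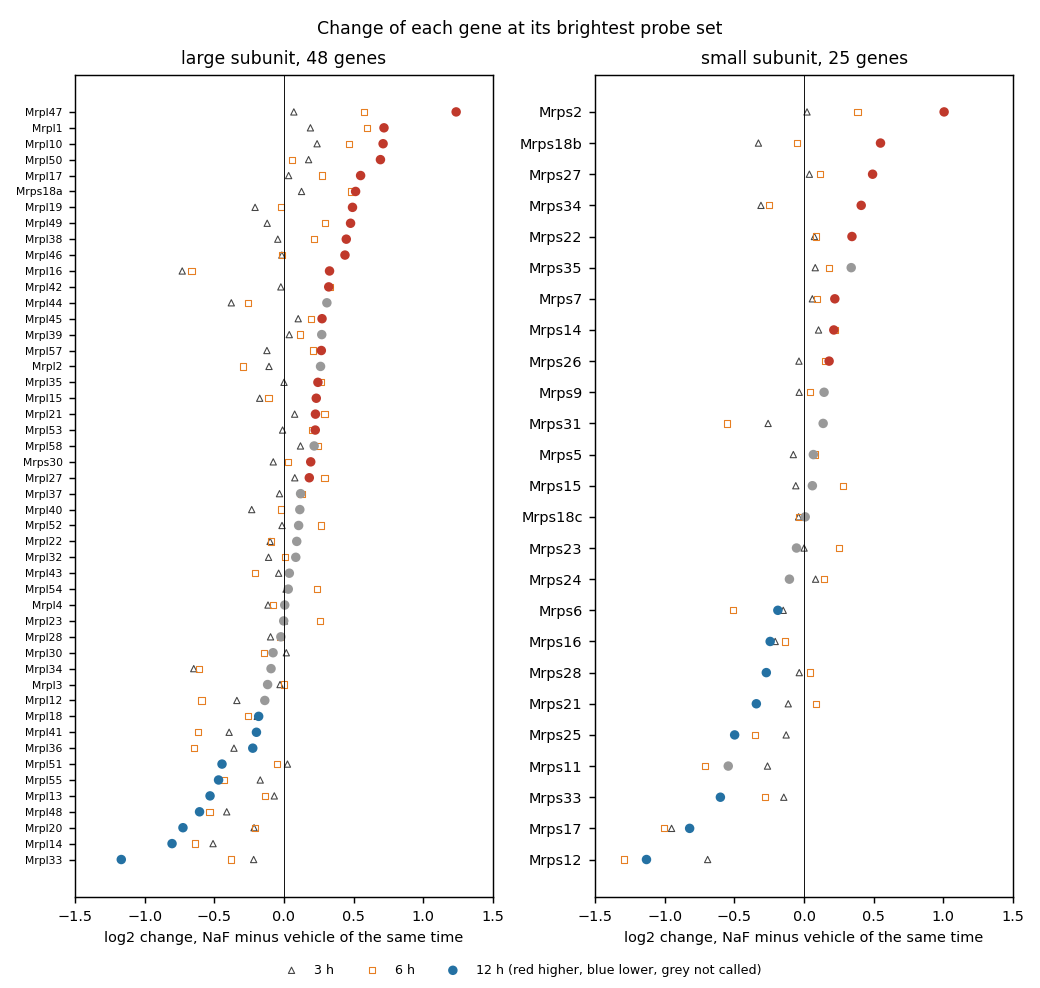
Log2 change (NaF minus vehicle of the same time, horizontal axis) of each of the 73 genes at its brightest probe set, large subunit left and small subunit right, ordered by the change at 12 h; open triangles are 3 h, open squares 6 h and filled circles 12 h, colored by the limma call at 12 h. The changes at 12 h run from -1.17 (Mrpl33) to 1.24 (Mrpl47), and the genes lowest at 3 h (Mrps17, Mrpl16, Mrps12 and Mrpl34) are not all among the lowest at 12 h.

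Large losses that lasted through all 3 times were found in 3 genes with bacterial counterparts: Mrps12, whose protein lines the decoding center of the small subunit, Mrps17, whose bacterial counterpart is a primary rRNA-binding protein of the small subunit, and Mrpl14, a protein at the interface of the 2 subunits. Mrps17 had log2 signals of 10.26, 10.14 and 10.33 with NaF, against 11.19, 11.21, 11.15 and 11.15 with vehicle. Mrps12 had 9.97, 9.35 and 9.61 with NaF, against 10.53, 10.67, 10.64 and 10.74 with vehicle. Mrpl14 had 8.51, 8.42 and 8.28 with NaF, against 9.01, 9.02, 9.06 and 9.08 with vehicle. In all 3 genes every NaF array lay below every vehicle array, with a gap wider than the whole range of the vehicle arrays. The change of Mrps17 was -0.95, -1.01 and -0.82 at 3, 6 and 12 h (adjusted p = 0.0024, 0.00044 and 0.00025). That of Mrps12 was -0.69, -1.30 and -1.13 (adjusted p = 0.013, 0.00057 and 0.00041), and that of Mrpl14 was -0.51, -0.64 and -0.80 (adjusted p = 0.0086, 0.0013 and 0.00034). Mrps17 and Mrps12 were therefore lowest at 6 h, and Mrpl14 at 12 h. Leaving out the vehicle array of 6 h ended the calls of Mrps12 and Mrpl14 at 3 h (adjusted p = 0.067 and 0.055).

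Mrpl41 and Mrpl36 were also called lower at all 3 times, with their lowest level at 6 h. Mrpl41, a mitochondria-specific protein of the large subunit, had 10.50, 10.22 and 10.57 with NaF, against 10.84, 10.90, 10.83 and 10.77 with vehicle, a change of -0.39, -0.62 and -0.20. Mrpl36, a small protein with a bacterial counterpart, had 9.45, 9.23 and 9.60 with NaF, against 9.76, 9.81, 9.87 and 9.82 with vehicle, a change of -0.36, -0.65 and -0.22. No NaF array of either gene reached the vehicle range. The call of Mrpl41 at 3 h (adjusted p = 0.041) was lost when any of the 4 vehicle arrays was left out (adjusted p between 0.058 and 0.14), and leaving out that of 6 h also ended its call at 12 h (adjusted p = 0.054, against 0.019 with it).

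A second set of losses appeared late. Mrpl33, a small protein of the large subunit with a bacterial counterpart, had 9.81, 9.63 and 8.86 with NaF, against 9.94, 10.03, 10.01 and 10.03 with vehicle. Its change was -0.22, -0.38 and -1.17, and limma put the 12 h array of NaF 0.95 ± 0.08 (SE) below the 3 h array (adjusted p = 0.00094). Among all members at 12 h it was the lowest against vehicle. Mrpl20, whose bacterial counterpart acts in assembly of the large subunit, had 9.01, 9.04 and 8.61 with NaF, against 9.20, 9.23, 9.24 and 9.34 with vehicle (12 h change -0.73, adjusted p = 0.00091). Mrps33, a mitochondria-specific protein of the small subunit, had 10.13, 9.97 and 9.65 with NaF, against 10.34, 10.27, 10.25 and 10.25 with vehicle (12 h change -0.60, adjusted p = 0.00066). Mrpl13, a large-subunit protein with a bacterial counterpart, had 10.75, 10.74 and 10.38 with NaF, against 10.81, 10.81, 10.88 and 10.91 with vehicle (12 h change -0.53, adjusted p = 0.0019). In each of these genes the 3 NaF arrays lay below the 4 vehicle arrays, but at 3 h the distance to vehicle was not called. Mrpl33 and Mrps33 were already called lower at 6 h (changes -0.38 and -0.28), and Mrpl20 and Mrpl13 were not. Mrpl48, mitochondria-specific, had 8.87, 8.49 and 8.41 with NaF, against 9.04, 9.28, 9.02 and 9.01 with vehicle, and was called at 6 and 12 h (changes -0.54 and -0.61, adjusted p = 0.010 and 0.0037).

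The largest gains were in Mrpl47 and Mrps2. Mrpl47, a large-subunit protein whose bacterial counterpart lies at the exit of the peptide tunnel, had 9.21, 9.63 and 10.09 with NaF, against 8.93, 9.14, 9.06 and 8.86 with vehicle. Mrps2, a small-subunit protein with a bacterial counterpart, had 9.73, 9.99 and 10.52 with NaF, against 9.49, 9.71, 9.61 and 9.52 with vehicle. In both genes every NaF array was above every vehicle array, and the 3 h array only just so. Mrpl47 changed by 0.07, 0.58 and 1.24 (adjusted p = 0.32, 0.0089 and 0.00073) and Mrps2 by 0.02, 0.38 and 1.01 (adjusted p = 0.42, 0.020 and 0.00064). Leaving out vehicle 6 h or vehicle 12 h ended the call of Mrps2 at 6 h (adjusted p = 0.057 and 0.053).

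Mrpl1 and Mrpl10, which belong to the mobile stalks of the large subunit, moved upward together with Mrpl17. Mrpl1, the protein of the stalk near the exit of tRNAs, had 8.71, 8.94 and 9.11 with NaF, against 8.31, 8.52, 8.34 and 8.40 with vehicle. Mrpl10, the base to which copies of Mrpl12 attach, had 9.07, 9.45 and 9.58 with NaF, against 8.89, 8.84, 8.98 and 8.87 with vehicle. Mrpl17 had 11.68, 11.91 and 12.12 with NaF, against 11.63, 11.64, 11.64 and 11.57 with vehicle. None of these 3 genes had a NaF array within its vehicle range, and all were highest at 12 h. The change at 12 h was 0.72 for Mrpl1 (adjusted p = 0.0013), 0.71 for Mrpl10 (adjusted p = 0.00079) and 0.55 for Mrpl17 (adjusted p = 0.0012). A second tested probe set of Mrpl10 gave 0.72 at 12 h, but its 3 h array of NaF (7.92) lay within its vehicle range (7.52 to 7.97).

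Mrpl12, the factor-binding protein of the same stalk as Mrpl10, which in human cells also binds the mitochondrial RNA polymerase, was lower after NaF. It had 11.29, 11.00 and 11.40 with NaF, against 11.55, 11.63, 11.59 and 11.54 with vehicle. All NaF arrays were below all vehicle arrays, with the lowest value at 6 h. Its change was -0.34, -0.59 and -0.14, and only that at 6 h was called (adjusted p = 0.051, 0.0019 and 0.054). Filtering at a mean log2 signal of 8 or letting the variance depend on signal brought the other times past the threshold as well (adjusted p between 0.018 and 0.039).

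Mrpl50, a mitochondria-specific protein of the large subunit, was called only at 12 h. Its log2 signals were 9.18, 9.36 and 9.99 with NaF, against 9.30, 9.0, 9.30 and 9.29 with vehicle. The NaF array of 12 h stood apart, while those of 3 and 6 h lay in or near the vehicle range. The change at 12 h was 0.69 (adjusted p = 0.0040), and its second tested probe set gave 0.67.

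Mrpl16, near the peptidyl transferase center, was the only member called in both directions. It had 8.52, 8.51 and 9.51 with NaF, against 9.24, 9.25, 9.18 and 9.18 with vehicle. The arrays of 3 and 6 h lay below and that of 12 h above the narrow range of vehicle, with changes of -0.73, -0.66 and 0.33 (adjusted p = 0.0043, 0.0010 and 0.0089). The 12 h array was 0.99 ± 0.08 (SE) above the 3 h array of NaF (adjusted p = 0.00088). Mrpl34, a small basic protein with a bacterial counterpart, shared the early loss, with 7.63, 7.73 and 8.37 with NaF, against 8.22, 8.27, 8.34 and 8.47 with vehicle. It was called lower at 3 and 6 h (changes -0.65 and -0.61, adjusted p = 0.016 and 0.0074), and its 12 h array lay within the vehicle range.

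**Figure D3:**
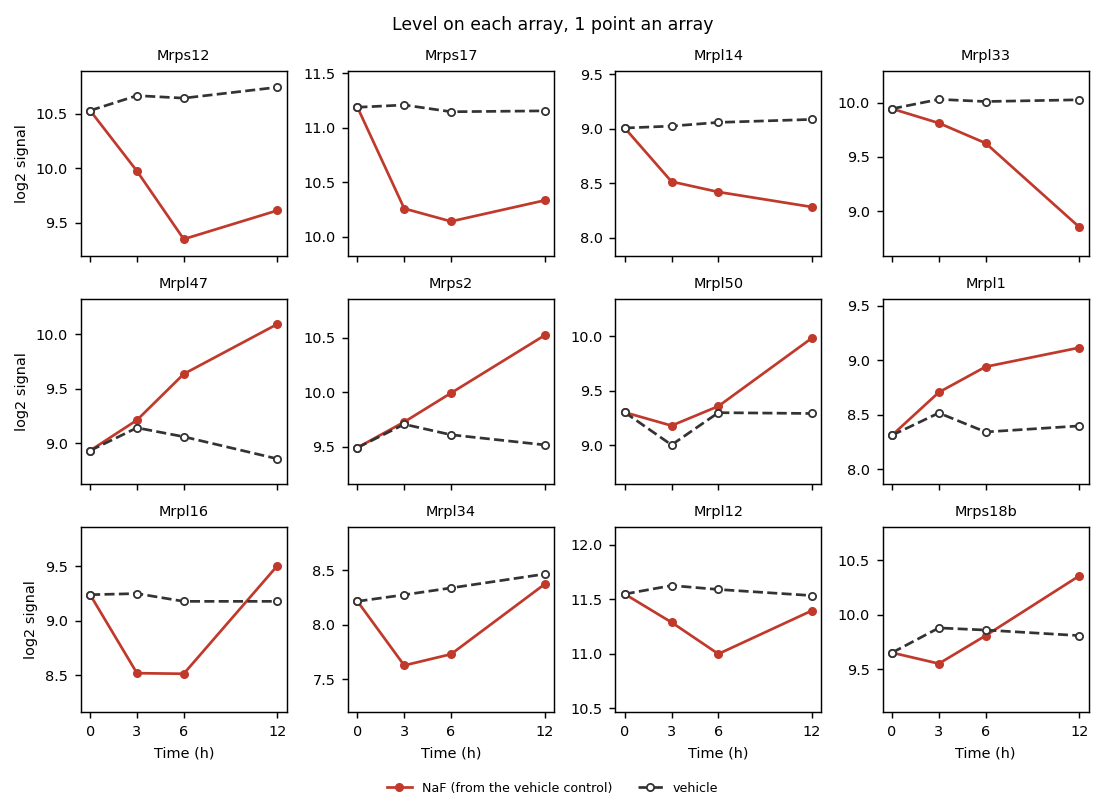
Log2 signal (vertical axis) against time (h, horizontal axis) of 12 members at their brightest probe set, NaF as filled points and solid lines, vehicle as open points and dashed lines, 1 array a point, with the vehicle control drawn at 0 h in both. Each panel spans the same range of log2 units. The top row holds genes below vehicle, the middle row genes above vehicle at 12 h, and the bottom row genes whose direction or distance changes with time, such as Mrpl16 with 8.52, 8.51 and 9.51.

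Mrps18a, Mrps18b and Mrps18c are paralogs that replace or extend a single bacterial protein, Mrps18a in the large subunit and the other 2 in the small subunit. Mrps18a had 10.03, 10.37 and 10.26 with NaF, against 9.83, 9.91, 9.89 and 9.75 with vehicle. Mrps18b had 9.55, 9.81 and 10.36 with NaF, against 9.65, 9.88, 9.86 and 9.81 with vehicle. Mrps18c had 7.62, 7.69 and 7.63 with NaF, against 7.45, 7.66, 7.73 and 7.62 with vehicle. Mrps18a was above vehicle on every NaF array, Mrps18b below vehicle at 3 h and above it at 12 h, and Mrps18c overlapped with vehicle throughout. The change at 12 h was 0.51 for Mrps18a (adjusted p = 0.0058), 0.55 for Mrps18b (adjusted p = 0.0045) and 0.01 for Mrps18c (adjusted p = 0.92). For Mrps18b the 12 h array was 0.81 ± 0.13 (SE) above the 3 h array of NaF (adjusted p = 0.0043).

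Mrpl3, Mrps16, Mrps22, Mrpl44 and Mrps30 were named for their roles. Mrpl3, beside the peptidyl transferase center, had 9.75, 9.75 and 9.64 with NaF, against 9.67, 9.78, 9.75 and 9.75 with vehicle, and had no call. Mrps16 had 9.43, 9.51 and 9.42 with NaF, against 9.57, 9.63, 9.65 and 9.67 with vehicle, and was called lower at 12 h (change -0.24, adjusted p = 0.034). Mrps22 had 8.06, 8.18 and 8.36 with NaF, against 8.09, 7.99, 8.10 and 8.02 with vehicle, and was called higher at 12 h (change 0.34, adjusted p = 0.0099). Among these 3 genes, only Mrps16 had all NaF arrays outside the vehicle range, and leaving out vehicle 6 h or vehicle 12 h ended its call (adjusted p = 0.089 and 0.069). Mrpl44, a mitochondria-specific protein with the fold of a double-stranded RNA nuclease, had 8.89, 8.91 and 9.38 with NaF, against 9.11, 9.27, 9.16 and 9.07 with vehicle. It was not called at any time, although its 12 h array was 0.48 ± 0.11 (SE) above its 3 h array of NaF (adjusted p = 0.016), and leaving out vehicle 3 h brought its change at 12 h past the threshold (adjusted p = 0.025). Mrps30, also known as programmed cell death protein 9, had 9.77, 9.88 and 10.03 with NaF, against 9.82, 9.85, 9.85 and 9.84 with vehicle. Its change of 0.19 at 12 h was called (adjusted p = 0.026), and leaving out vehicle 6 h (adjusted p = 0.065) or quantile normalization (adjusted p = 0.051) ended the call.

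Mrpl54 and Mrpl40 had the remaining brightest and dimmest probe sets, a property of the probes as well as of the RNA. Mrpl54, mitochondria-specific, had 11.46, 11.64 and 11.48 with NaF, against 11.41, 11.45, 11.40 and 11.45 with vehicle, and was called higher only at 6 h (change 0.24, adjusted p = 0.035). Leaving out vehicle 6 h or vehicle 12 h ended that call (adjusted p = 0.096 and 0.062). Mrpl40, mitochondria-specific as well, had 7.77, 7.94 and 8.11 with NaF, against 7.68, 8.0, 7.96 and 8.0 with vehicle, and had no call. The other members lay between these patterns, with changes at 12 h from -0.54 (Mrps11) to 0.49 (Mrps27 and Mrpl19).

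The time course of NaF itself was tested by setting the 12 h array against the 3 h array of NaF. Of the 84 member probe sets, 27 (32.1%) were higher at 12 h and 7 (8.33%) lower, where 24.6% and 24.5% of all tested probe sets were. Leaving out vehicle 6 h, which enters only through the spread, gave 4 instead of 7 lower. A shift common to the 3 NaF arrays against the 4 vehicle arrays was called for 6 probe sets only, Mrpl1 upward (4.01% of all tested probe sets were called upward) and Mrpl14, Mrpl41, Mrpl55, Mrps12 and Mrps17 downward (4.49% of all). None of these calls held with time as a block in limma, which matched the NaF and vehicle arrays of 3, 6 and 12 h: 0 members were called in either direction (5 higher and 12 lower at an unadjusted p under 0.05), and the 6 probe sets had adjusted p-values between 0.13 and 0.21. The fit with the block has fewer residual degrees of freedom than that without it. Its share of calls over all tested probe sets was not counted, so these counts only describe the members. Without the block, the counts ranged from 0 to 15 upward and from 1 to 13 downward when each of the 7 arrays was left out in turn, with the highest values without NaF 3 h (15 and 13) and without NaF 12 h (13 downward), 0 upward when NaF 6 h or any vehicle array was left out, and 1 downward without the vehicle control, vehicle 6 h or vehicle 12 h. Counted by overlap alone, 11 probe sets had all NaF arrays above all vehicle arrays (14.2% of all tested probe sets) and 15 had them below (15.2% of all).

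By position in the ribosome, 20 of the 48 large-subunit genes were called higher (41.7%) and 10 lower (20.8%) at 12 h, with a median change of 0.15. Of the 25 small-subunit genes 8 were called higher and 8 lower (32% each), with a median of 0.06, close to the 28.9% higher and 31.7% lower over all tested probe sets. Among the 41 genes with a bacterial counterpart, 13 were called higher (31.7%) and 12 lower (29.3%) at 12 h, which is also close to that background, and their changes ran from -1.17 to 1.24 around a median of 0.01. Among the 30 mitochondria-specific genes 13 were called higher (43.3%) and 6 lower (20%), with changes from -0.61 to 0.69 around a median of 0.20. Both the deepest losses and the largest gains were thus in genes with bacterial counterparts. At 3 h, 6 of the 41 genes with a bacterial counterpart were called lower (14.6%), against 6.29% of all tested probe sets. Of the 30 mitochondria-specific genes 1 was called lower (3.33%), Mrpl41. These differences between classes were not tested.

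The rest of the mitochondrial gene expression machinery was followed in lists of known genes, with each gene at its brightest probe set. Counts at 12 h are to be read against the 28.9% of all tested probe sets called higher and the 31.7% called lower. Of 12 tested genes for replication and transcription of mitochondrial DNA, 9 were called higher (75%) and 0 lower at 12 h, with a median change of 0.50. Polg2, the accessory subunit of the mitochondrial DNA polymerase, had 8.46, 8.87 and 9.05 with NaF, against 7.92, 8.15, 8.08 and 7.94 with vehicle, and Twnk, the replicative helicase, had 8.13, 8.29 and 9.05, against 8.19, 8.22, 8.09 and 7.95. Both were highest at 12 h (changes 1.11 each, adjusted p = 0.00061 and 0.0011), as was Polrmt, the mitochondrial RNA polymerase (change 0.75, adjusted p = 0.0078). Of 19 tested genes for assembly of the mitochondrial ribosome and modification of its rRNA, 13 were called higher (68.4%) and 0 lower, with a median of 0.43. They included Mrm3, an rRNA methyltransferase (change 1.02), Noa1, a GTPase (0.79), and Mterf4, which brings a methyltransferase to the ribosome (0.78). In each list 2 genes were called lower at 3 h (16.7% and 10.5%, against 6.29% of all tested probe sets) and 0 higher (1 each at an unadjusted p under 0.05). At 6 h, 16.7% and 21.1% of the 2 lists were called higher, so most higher calls came at 12 h. Higher calls also rose with time over all tested probe sets, with 2.76%, 16.7% and 28.9% at 3, 6 and 12 h. At 12 h limma called 0 lower in both lists, and none had an unadjusted p under 0.05 in that direction.

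Mitochondrial translation factors had 4 of 13 tested genes called higher (30.8%) and 0 lower at 12 h (median 0.11, with 0 lower at an unadjusted p under 0.05), among them Tsfm, an elongation factor (0.61), and Mtrf1l, a release factor (0.57). Tbrg4, counted in this list but known for acting on mitochondrial mRNAs, had 9.25, 9.84 and 10.54 with NaF, against 8.93, 9.09, 8.97 and 8.85 with vehicle (12 h change 1.69, adjusted p = 0.00019). It was above vehicle on all 3 NaF arrays. Of 7 tested mitochondrial aminoacyl-tRNA synthetases, 3 were called higher and 1 lower (median 0.23), with Wars2 at 0.72, Hars2 at 0.57 and Iars2 at -0.37. Of 28 tested import genes, 14 were called higher (50%) and 3 lower (10.7%), with a median of 0.17. Grpel2, a cochaperone of the import motor, changed by 1.26, Timm10, an intermembrane space chaperone, by 0.96, and Dnajc19, another cochaperone of the motor, by -0.93 at 12 h. The 6 tested subunits listed under other names, 1 of which (Mrpl58) is also a member, had 1 call, Gadd45gip1 (0.28).

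Respiratory chain and ATP synthase genes of the nucleus, whose products join those made by the mitochondrial ribosome, had 7 of 71 tested genes called higher (9.86%) and 29 lower (40.8%) at 12 h, against 28.9% and 31.7% over all tested probe sets, and a median of -0.14. Ndufc2 of complex I had 10.66, 10.43 and 9.69 with NaF, against 10.83, 10.78, 10.80 and 10.74 with vehicle, a change of -1.04 at 12 h. Uqcrh and Uqcr11 of complex III changed by -0.93 and -0.86. At 6 h, 10 of these genes were called higher and 6 lower, so the lower calls were mostly those of the 12 h array. Cytosolic ribosomal proteins had few calls. Apart from Rpl7l1, Rps27l and Rpl39 (mean log2 signals 10.66, 7.16 and 7.05), the tested ones lay between 12.78 and 13.97. These signals are near the top of the scale and above that of Mrpl17 (11.74), the brightest member. Whether changes are compressed at such signals was not tested. Of 41 tested, 3 were called higher (7.32%; Rpl7l1, 0.55, Rpl12, 0.28, and Rpl39, 0.25) and 0 lower at 12 h, and limma called 0 at 3 and 6 h, where an unadjusted p under 0.05 was reached by 1 higher and 1 lower at 3 h and by 3 higher at 6 h. Genes of the mitochondrial unfolded protein response had 8 of 12 called higher (66.7%) and 0 lower (median 0.36, with 0 lower at an unadjusted p under 0.05), led by Ddit3, a transcription factor of several stress responses (3.36), Lonp1, the matrix protease (1.38), and Atf5, a transcription factor (1.02). Among the chaperones of this list, Hspa9 was called higher at 12 h (0.78). Hspd1 and Hspe1 were not called at that time (0.11 and 0.02, adjusted p = 0.29 and 0.84). At 6 h, 5 of the 12 genes were called higher (41.7%) and 3 lower (25%), against 16.7% and 22.2% over all tested probe sets. The differences between lists were not tested.

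**Figure D4:**
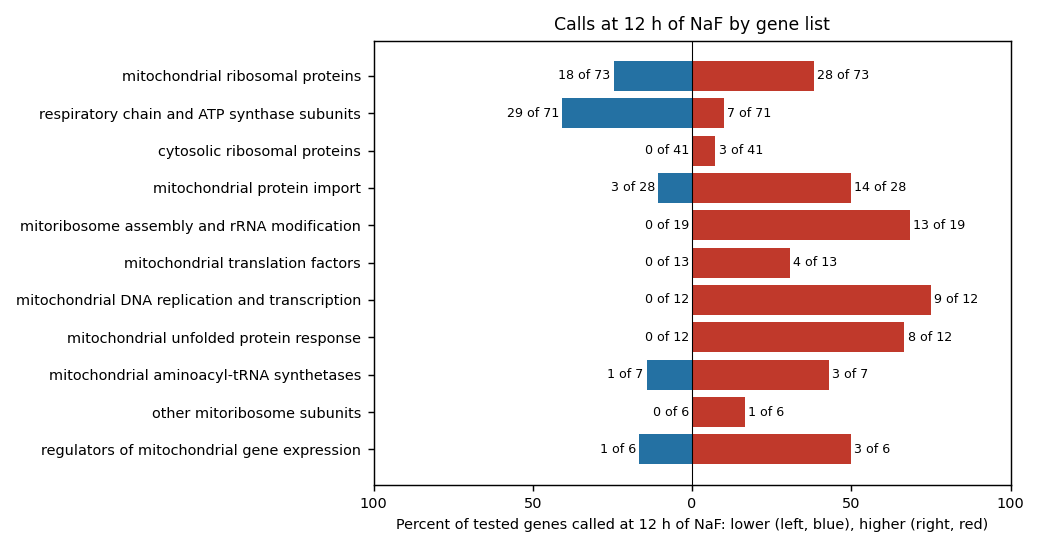
Percent of the tested genes of each list called at 12 h of NaF in limma (horizontal axis), higher to the right in red and lower to the left in blue, with the numbers of genes. Mitochondrial ribosomal proteins have calls on both sides (28 higher and 18 lower of 73), respiratory chain and ATP synthase subunits mostly on the lower side (29 of 71), and assembly genes only on the higher side (13 of 19).

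Of 10 listed regulators, 6 were bright enough to be tested, and 3 were called higher and 1 lower at 12 h (median 0.35). Myc, a transcription factor that drives genes of growth and ribosome synthesis, had 8.84, 10.71 and 11.62 with NaF, against 10.73, 10.95, 10.65 and 10.62 with vehicle. It was far below vehicle at 3 h and above it at 12 h (changes -2.11 and 1.01, adjusted p = 0.0024 each). Pprc1, a coactivator of the PGC-1 family, changed by -0.34, -0.13 and 0.78, and was called lower at 3 h and higher at 12 h. Gabpa, the ETS factor known for binding promoters of many nuclear genes for mitochondria, had 9.76, 9.24 and 9.11 with NaF, against 9.69, 9.58, 9.54 and 9.50 with vehicle. Its arrays of 6 and 12 h were below the vehicle range, and the change of -0.39 at 12 h was called (adjusted p = 0.0054). Gabpb1, of the same list, went the other way. It was called higher at 6 h (change 0.58, adjusted p = 0.023) and not called at 12 h (change 0.41, adjusted p = 0.19).

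Promoters of the members were read from RefSeq (build GRCr8), as 250 bases before to 50 bases after the start of each gene. All 73 genes matched a current symbol and 59 had a promoter entry. Mrpl13, Mrpl15, Mrpl16, Mrpl19, Mrpl21, Mrpl35, Mrpl38, Mrpl43, Mrps12, Mrps22, Mrps24, Mrps28, Mrps34 and Mrps35 were without an entry. On both strands 5 motifs were searched. CCGGAAG, a core of ETS sites, was in 20 of the 59 promoters (33.9%, against 9.22% of all 27457 promoters). AAGATGGC, a core of YY1 sites, was in 14 (23.7%, against 3.44%). The palindrome bound by NRF1, a GC-rich motif of 10 letters that is written in capitals in the sequence of Mrps18b, was in 4 (6.78%, against 0.932%). These 3 motifs stood at higher shares than over all promoters, and the other 2 were closer: CACGTG, the E box that Myc and related factors bind, was in 6 (10.2%, against 6.65%), and CCAAT was in 26 (44.1%, against 37.7%). The members' promoters had a mean GC content of 56.4%, against 53.1% over all promoters. None of these motifs contains another, and 15 members had none of the 5.

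Motif counts were also set beside the calls at 12 h, with no test. The ETS core was in 7 of 20 genes called higher and 5 of 15 called lower, CCAAT in 6 and 7, the E box in 1 and 1, and the NRF1 palindrome in 2 and 0. The YY1 core was in 9 of 20 genes called higher and 3 of 15 called lower. Only 3 of the 14 promoters with it had it within the 250 bases before the start, and in the others it lay after the start or across it. Yy1 itself was called higher at 12 h (change 0.28, adjusted p = 0.047) and lower at 6 h (change -0.43, adjusted p = 0.0053). A match is a description of the letters and not a binding site.

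The promoters of Mrps18b, Mrpl33 and Mrps17 are shown because these genes had a late gain, the deepest loss at 12 h and the deepest loss at 3 h. Each covers the 250 bases before the start, on the strand of the gene, with the motif matches in these bases in capitals.
Mrps18b, chr20:2842756-2843005, plus strand: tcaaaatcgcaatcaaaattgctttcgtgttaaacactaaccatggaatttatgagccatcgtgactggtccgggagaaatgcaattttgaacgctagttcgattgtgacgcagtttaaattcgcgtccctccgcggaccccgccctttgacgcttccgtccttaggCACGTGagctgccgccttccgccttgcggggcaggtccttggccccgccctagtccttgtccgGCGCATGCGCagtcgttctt
Mrpl33, chr6:30553988-30554237, minus strand: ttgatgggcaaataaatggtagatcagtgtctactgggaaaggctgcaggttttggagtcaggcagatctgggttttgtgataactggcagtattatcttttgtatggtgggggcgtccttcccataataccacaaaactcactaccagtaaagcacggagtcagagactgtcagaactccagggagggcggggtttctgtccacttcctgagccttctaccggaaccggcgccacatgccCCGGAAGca
Mrps17, chr12:32587813-32588062, minus strand: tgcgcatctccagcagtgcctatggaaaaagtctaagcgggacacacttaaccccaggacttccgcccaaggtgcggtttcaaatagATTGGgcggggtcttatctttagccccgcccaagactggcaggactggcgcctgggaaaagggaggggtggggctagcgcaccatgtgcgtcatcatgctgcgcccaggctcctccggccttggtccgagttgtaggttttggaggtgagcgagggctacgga
The capitals in Mrps18b mark the E box, which begins 83 bases before the start, and the NRF1 palindrome, which begins 20 bases before it. In Mrpl33 they mark the ETS core 9 bases before the start, and in Mrps17 the CCAAT motif, read on the other strand, 163 bases before the start. Over the whole searched window, which also covers the 50 bases after the start, Mrps18b held the ETS and YY1 cores as well, so it shared the ETS core with Mrpl33.

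Many members lie head to head with another gene. Of the 59 genes with a promoter entry, 18 (30.5%) had a divergent neighbor whose start lay within 1000 bases, against 10.9% of all 27457 genes with an entry. In 10 of these cases, counted from the member's side, the neighbor was also tested. Both genes were called in the same direction at 12 h in 3 cases, Mrps18b with Ppp1r10 and Mrps7 with Gga3 upward and Mrpl51 with Ncapd2 downward, and in 0 cases in opposite directions. Over all tested probe sets, 28.9% were called higher and 31.7% lower at 12 h. The share of such agreement over other pairs of genes was not counted, so these numbers only describe the cases.

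Mrpl46 and Mrps11, both members, have starts 233 bases apart, and the stretch between them is shown because the 2 genes had changes of opposite sign at 12 h. Mrpl47, the member with the largest gain, has its start 243 bases from that of Ndufb5, a complex I subunit, and that stretch is shown to set the gain beside its neighbor. Neither stretch holds any of the 5 motifs, so nothing is in capitals. Over the whole searched window, which also covers bases after the start, Mrpl46 held the YY1 core, after its start or across it. Mrps11 and Mrpl47 held none of the 5 motifs in their windows.
Mrps11 and Mrpl46, chr1:142117031-142117263, strand of Mrps11, plus: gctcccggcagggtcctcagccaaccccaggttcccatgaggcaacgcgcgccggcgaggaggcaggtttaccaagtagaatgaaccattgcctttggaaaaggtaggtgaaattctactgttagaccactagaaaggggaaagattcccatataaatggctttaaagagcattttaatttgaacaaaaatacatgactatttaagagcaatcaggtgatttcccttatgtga
Mrpl47 and Ndufb5, chr2:117447362-117447604, strand of Mrpl47, minus: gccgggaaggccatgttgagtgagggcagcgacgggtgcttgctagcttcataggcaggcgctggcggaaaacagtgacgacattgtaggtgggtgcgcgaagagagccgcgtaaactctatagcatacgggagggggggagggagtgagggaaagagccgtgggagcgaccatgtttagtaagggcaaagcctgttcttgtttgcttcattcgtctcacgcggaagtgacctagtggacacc
Mrpl46, a mitochondria-specific protein of the large subunit, had 8.61, 8.69 and 9.13 with NaF, against 8.59, 8.63, 8.70 and 8.70 with vehicle. Mrps11, a small-subunit protein with a bacterial counterpart, had 8.60, 8.20 and 8.44 with NaF, against 8.59, 8.87, 8.92 and 8.99 with vehicle. Mrpl46 was above vehicle at 12 h alone (change 0.44, adjusted p = 0.0022). Mrps11 was below vehicle at 6 and 12 h (changes -0.71 and -0.54), called at 6 h (adjusted p = 0.021) and not at 12 h (adjusted p = 0.065), and its vehicle control lay below the other vehicle arrays. The difference between the 2 genes was not tested. Ndufb5 had 11.41, 11.49 and 11.44 with NaF, against 11.27, 11.28, 11.32 and 11.33 with vehicle, above vehicle on every NaF array by far less than Mrpl47 at 12 h (change 0.11 against 1.24), and it was not called at 12 h (adjusted p = 0.086).

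**Figure D5:**
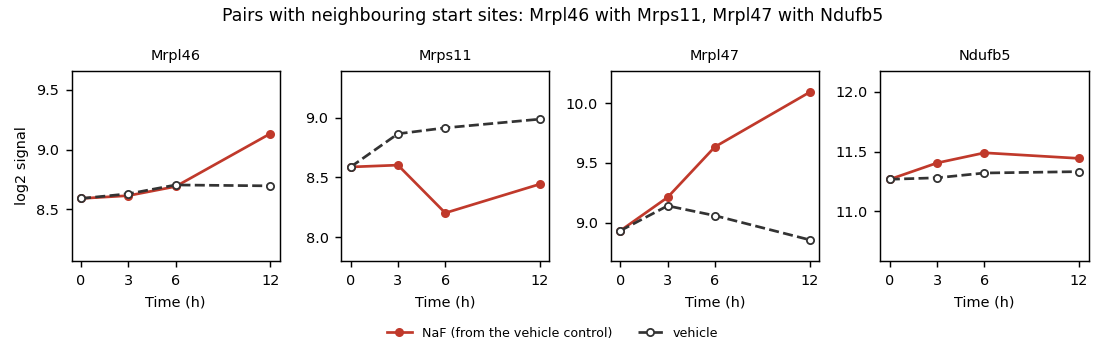
Log2 signal (vertical axis) against time (h, horizontal axis) of the neighboring pairs Mrpl46 with Mrps11 and Mrpl47 with Ndufb5, NaF as filled points and solid lines and vehicle as open points and dashed lines, 1 array a point, with the vehicle control drawn at 0 h in both. Mrpl46 is above vehicle at 12 h (9.13 against 8.70) while Mrps11 is below it (8.44 against 8.99).

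In 9 genes more than 1 probe set was tested, and no gene had probe sets called in opposite directions at the same time. The probe sets of Mrpl10, Mrpl50 and Mrpl57 gave similar changes at 12 h (0.71 and 0.72, 0.69 and 0.67, 0.27 and 0.30). Both probe sets of each of these genes were called at 12 h. They differed more in Mrpl49 (0.13 and 0.48), in Mrps14 (0.21 and 0.06) and in the 4 of Mrpl51 (-0.45 to -0.03). In Mrpl52 they had opposite signs (0.11 and -0.13). The calls of Mrpl49 and Mrps14 at 6 and 12 h and of Mrpl52 at 6 h were not shared by their second probe sets. The call of Mrpl51 at 12 h was not shared by its dimmest probe sets. The 13 member probe sets below the signal limit were not tested, and their changes ran from -0.56 to 0.30 at 3 h, from -0.71 to 0.52 at 6 h and from -0.21 to 0.47 at 12 h. Just inside the limit was a second probe set of Mrps18c (mean log2 signal 7.14) and just outside a second one of Mrpl12 (6.69).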

How the data were processed

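The authors hybridized RNA of ROE2 cells to Affymetrix rat genome arrays and analyzed intensities in GeneSpring GX, and the deposited file holds log2 signals already scaled between arrays by the authors, used here without change. The GeneSpring version, the summarization and the normalization were not stated in the sources. A platform annotation of 2016 named the probe sets (20832 with 1 symbol, 436 with several, 9831 with none), without coordinates. Array control probe sets and those with a mean log2 signal under 7 were left out, which left 10707. Fits used limma 3.58.1 under R 4.3.3 (lmFit and eBayes, Benjamini-Hochberg over all tested probe sets), with 3 residual and 2.79 prior degrees of freedom for each NaF array against the 4 vehicle arrays, and 5 and 2.72 for 3 NaF against 4 vehicle arrays. They were tested on simulated data. The number of arrays limits the precision: over the vehicle arrays the median SD of the members was 0.0629.

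The members and the gene lists were chosen with earlier results of these data known. Named members were the 8 largest rises and 8 largest falls called at 12 h, the 3 brightest and 3 dimmest genes, genes called in opposite directions, and genes fixed for their role (of these, Mrpl11 and Mrps36 were not analysed here). From each list up to 3 genes with the largest called change were named. Mrpl19, Mrpl34, Mrpl36, Mrpl46, Mrpl49, Mrpl51, Mrpl57, Mrps11, Mrps27, Yy1, genes named in short counts, the neighboring genes and the printed promoters were chosen after their values were seen. Alternatives were other filters, scalings, baselines, fold thresholds and variance models, each array left out, time as a block and the methods' t-test.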

Additional observations from a re-analysis of the deposited data

Results flagged for a closer look

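In 17 of the 27 named members the 12 h array of NaF differed from the 3 h array in limma. Since 16 of the named members were chosen as the largest changes called at 12 h, this count is not independent of that choice. Of the 84 tested member probe sets, the difference between the 12 h and 3 h arrays was called upward in 32.1% and downward in 8.33%, against 24.6% upward and 24.5% downward of all that were tested. The difference (12 h minus 3 h, log2) was positive in Mrpl16 (0.99), Mrpl47 (0.88), Mrps18b (0.81), Mrpl50 (0.80), Mrps2 (0.80), Mrpl10 (0.51), Mrpl44 (0.48), Mrpl17 (0.44), Mrpl1 (0.41), Mrps22 (0.30) and Mrps30 (0.27). It was negative in Mrpl33 (-0.95), Mrps33 (-0.48), Mrpl48 (-0.46), Mrpl20 (-0.40), Mrpl13 (-0.37) and Mrps12 (-0.36). The adjusted p-values lay between 0.00088 (Mrpl16) and 0.044 (Mrpl48).

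Of the named members, 4 had a vehicle array far from the other 3. The vehicle array of 12 h was lowest for Mrpl17 (11.57, with the others between 11.63 and 11.64), and the vehicle control for Mrpl40 (7.68, with the others between 7.96 and 8.0). The vehicle array of 3 h was highest for Mrpl48 (9.28, with the others between 9.01 and 9.04) and lowest for Mrpl50 (9.0, with the others between 9.29 and 9.30). Of all 73 member genes, 8 had such an array. The limit used is passed by about 1 in 20 groups of independent normal values. The deposited values hold ties, such as 9.7586 for Mrps23 on the vehicle control and the vehicle arrays of 3 and 12 h. The share over all tested probe sets was not counted, so 8 of 73 cannot be read as an excess in the members.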

How the results depend on the processing

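The values rest on 7 arrays, 1 a condition, and the test takes its spread from vehicle arrays of different times. The labels carry no replicate numbers, and the arrays of the same time were matched with time as a block.

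Without a filter on signal, 2 members were called lower at 3 h, 5 higher at 6 h and 11 lower at 12 h, in place of 7, 20 and 19, and 0 higher and 3 lower over all times, in place of 1 and 5. After quantile normalization 1 was called higher at 3 h, 3 higher over all times and 12 lower between 12 and 3 h of NaF (7 as deposited). With time as a block, 0 were called in either direction over all times, and the share over all tested probe sets was not counted. The methods' t-test gave 12 higher and 14 lower unadjusted, and 0 and 3 after Benjamini-Hochberg. With each vehicle array left out in turn, 0 members were called higher at 3 h and 2 to 6 lower, 9 to 19 higher and 15 to 18 lower at 6 h, 25 to 34 higher and 11 to 19 lower at 12 h, and 19 to 30 higher and 4 to 10 lower between 12 and 3 h of NaF. With each of the 7 arrays left out, 0 to 15 were called higher and 1 to 13 lower over all times. The cause of these shifts was not tested.

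Against the vehicle control, the median change of the members was 0.10 at 6 h and 0.16 at 12 h. At 2-fold in place of 1.5-fold, 0 members passed downward at 3 h, 0 upward and 2 downward at 6 h, and 2 and 2 at 12 h, and at 2.5-fold 0 passed at any time. Against the mean of the 4 vehicle arrays 2 passed 1.5-fold upward at 6 h. For the 27 named members, 8 of 295 alternative values lost a call at 12 h and 4 gained one. The numbers were 8 and 1 of 295 at 6 h, and 11 and 4 of 295 at 3 h. No change that was called in the main fit or in the alternative had the opposite sign in the other. Sign changes between values without a call were not counted.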
